A study of Mus musculus with 74 samples.

Results

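The H3K9me3 peak list of mouse embryos from somatic cell nuclear transfer (SCNT) at 6 h post activation (6 hpa) was compared with that of fertilized zygotes at pronuclear stage 5 (PN5). Peaks on the 19 autosomes were used, 157765 at 6 hpa and 127311 in PN5, or 285076 of the 1611250 peaks in the 10 lists of the series. They were compared along the genome in 1-kb windows, at promoters and over gene bodies, by position and by the fold enrichment given with each peak. The 6 hpa embryos were built from cumulus cells freed from cumulus-oocyte complexes and injected into enucleated metaphase II oocytes of superovulated B6D2F1 females, and were activated in SrCl2 with cytochalasin B. The PN5 zygotes came from superovulated C57BL/6 females mated with C57BL/6 males. The females were 8 to 10 weeks old. By the labels 5 precipitated and 5 input libraries stand behind the 6 hpa list and 2 and 2 behind the PN5 list, and embryos were pooled for each library. Each group was deposited as 1 list made after its libraries had been merged, so no value below has a replicate error and no test was run. Type of embryo, age and strain differ between the lists together and cannot be told apart. Study of origin may differ too, since the labels place the PN5 libraries in this series while the methods of the study take its fertilized data from an earlier publication. Sex composition may also differ, since cumulus cells are female and the sex of the zygotes is not given in the sources used here.

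H3K9me3 is histone H3 carrying 3 methyl groups on lysine 9, a mark of constitutive heterochromatin that silences many repeats and some gene clusters. A transferred nucleus brings the somatic pattern of this mark into the oocyte. A zygote instead begins with a maternal and a paternal genome that carry germ cell patterns, the paternal one packaged largely with protamines until after fertilization. Donor-derived H3K9me3 is known as a barrier to gene activation after nuclear transfer.

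The promoter groups below are those with a peak at 6 hpa alone, in PN5 alone and in both lists. For each group the 3 CpG-rich promoters with the strongest peaks and no annotated untranslated region in the span are shown as the 200 bases before the annotated start, read 5′ to 3′ on the strand of the gene, in the mm10 sequence (GRCm38.p6). CpG dinucleotides are in capitals. At 6 hpa alone, peaks covered all 200 bases of each sequence and PN5 peaks none.
Rbmxl2, chr7:107209245-107209444, plus strand: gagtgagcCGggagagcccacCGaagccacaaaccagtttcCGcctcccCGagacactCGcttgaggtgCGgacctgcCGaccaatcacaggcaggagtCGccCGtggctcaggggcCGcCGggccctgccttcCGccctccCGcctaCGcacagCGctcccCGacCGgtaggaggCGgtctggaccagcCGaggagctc
Hs3st2, chr7:121391659-121391858, plus strand: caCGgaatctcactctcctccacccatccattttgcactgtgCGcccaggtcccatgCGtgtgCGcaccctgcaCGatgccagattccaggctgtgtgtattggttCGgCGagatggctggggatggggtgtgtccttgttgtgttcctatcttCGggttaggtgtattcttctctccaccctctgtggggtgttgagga
Tcfl5, chr2:180642709-180642908, minus strand: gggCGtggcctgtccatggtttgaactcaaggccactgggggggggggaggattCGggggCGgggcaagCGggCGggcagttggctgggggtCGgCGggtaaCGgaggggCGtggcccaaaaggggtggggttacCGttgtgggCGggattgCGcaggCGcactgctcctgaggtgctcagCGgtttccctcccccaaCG
In PN5 alone, peaks covered all 200 bases of the following sequences and 6 hpa peaks none.
Alad, chr4:62519919-62520118, minus strand: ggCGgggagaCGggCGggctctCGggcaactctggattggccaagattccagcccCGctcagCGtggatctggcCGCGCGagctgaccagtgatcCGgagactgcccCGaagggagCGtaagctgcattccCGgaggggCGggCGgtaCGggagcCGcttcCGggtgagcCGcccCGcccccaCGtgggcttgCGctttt
Ccdc61, chr7:18910416-18910615, minus strand: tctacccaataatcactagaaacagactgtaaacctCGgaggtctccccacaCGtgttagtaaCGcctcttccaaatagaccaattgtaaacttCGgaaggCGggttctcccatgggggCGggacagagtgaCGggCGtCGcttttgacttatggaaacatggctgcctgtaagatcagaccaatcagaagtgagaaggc
Slc6a6, chr6:91683853-91684052, plus strand: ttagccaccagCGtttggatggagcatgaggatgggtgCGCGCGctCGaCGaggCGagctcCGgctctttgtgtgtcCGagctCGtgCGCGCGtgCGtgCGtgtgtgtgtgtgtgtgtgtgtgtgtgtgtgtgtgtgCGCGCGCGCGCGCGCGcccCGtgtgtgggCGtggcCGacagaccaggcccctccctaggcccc
In both lists, each sequence was covered whole at 6 hpa, and PN5 peaks covered 62.5% of the Grik3 sequence and all of the other two. The Vstm2b sequence overlaps an annotated exon.
Plekhm2, chr4:141664900-141665099, minus strand: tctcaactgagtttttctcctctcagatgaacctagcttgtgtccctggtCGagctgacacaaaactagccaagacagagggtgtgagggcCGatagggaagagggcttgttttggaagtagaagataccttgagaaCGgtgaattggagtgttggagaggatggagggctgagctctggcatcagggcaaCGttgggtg
Grik3, chr4:125490500-125490699, plus strand: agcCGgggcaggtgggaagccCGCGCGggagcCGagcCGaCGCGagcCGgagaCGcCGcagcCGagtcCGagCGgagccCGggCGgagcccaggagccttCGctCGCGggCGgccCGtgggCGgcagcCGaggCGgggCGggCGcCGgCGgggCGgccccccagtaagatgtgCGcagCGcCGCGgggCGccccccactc
Vstm2b, chr7:40898128-40898327, plus strand: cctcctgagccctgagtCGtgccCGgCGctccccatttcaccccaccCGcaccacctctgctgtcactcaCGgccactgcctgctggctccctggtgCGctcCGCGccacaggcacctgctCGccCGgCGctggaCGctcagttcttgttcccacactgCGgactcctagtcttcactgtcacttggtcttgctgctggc
These 9 sequences held between 4 CpGs (Plekhm2) and 34 CpGs (Grik3), and the groups overlapped in CpG number.

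The lists covered nearly the same length of the autosomes and different places. Peaks covered 138.4 Mb at 6 hpa, 5.78% of the assembled sequence, and 129.0 Mb in PN5, 5.39%. The ratio was 1.07 (95% interval 1.06 to 1.08, counting each kb as 1 unit). This interval takes in counting error alone, and neighbouring kb depend on one another. Over single autosomes the ratio ran from 0.761 to 1.53. Of the covered lengths 39.4 Mb was shared, 98.95 Mb was covered at 6 hpa alone and 89.6 Mb in PN5 alone. The shared part was 28.5% of the 6 hpa length and 30.5% of the PN5 length, and the Jaccard index (length in both divided by length in at least 1 of them) was 0.173. Median peak width was 563 bp at 6 hpa and 671 bp in PN5, and median fold enrichment over input was 2.73 and 2.84. Very broad peaks weighed more at 6 hpa. Peaks of at least 5 kb numbered 1861 and held 10.9% of the 6 hpa length, against 1449 peaks and 7.35% of the PN5 length, and the widest peak measured 87077 bp at 6 hpa and 40037 bp in PN5.

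The wider and stronger a peak was, the more often it met a peak of the other list. Of the 6 hpa peaks under 500 bp 19.8% touched a PN5 peak, and of those of 3 kb or more 72.4% did (95% Wilson interval 71.3 to 73.5%, n = 6147). For PN5 peaks the shares touching a 6 hpa peak were 24.1% and 81.3% (80.3 to 82.2%, n = 6589). Peaks of 6 hpa with a fold under 2.5 met a PN5 peak in 20.4% of cases and those of fold 4 or more in 62.7%. In PN5 the order was less regular at the low end, with 45.2% under fold 2.5, 31.3% from 2.5 to 3 and 73.4% from fold 4. Wide peaks have more bases that can touch, so the rise with width is a description of the lists.

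The balance between the lists differed from autosome to autosome. The covered length was greater at 6 hpa on 9 of the 19 autosomes and greater in PN5 on the other 10. The ratio of 6 hpa to PN5 length was highest on chromosome 5 (1.53), chromosome 7 (1.51), chromosome 4 (1.37) and chromosome 12 (1.29), and lowest on chromosome 17 (0.761) and chromosome 6 (0.763). Over the autosomes the ratio had a mean of 1.05 and an SD of 0.229. On chromosome 7, 11.2% of the assembled sequence lay under 6 hpa peaks and 7.44% under PN5 peaks, while on chromosome 1 the values were 3.76% and 4.41%. The share of 6 hpa 1-kb windows (defined below) that PN5 also marked ran from 22.8% on chromosome 5 to 38.7% on chromosome 14.

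**Figure D1:**
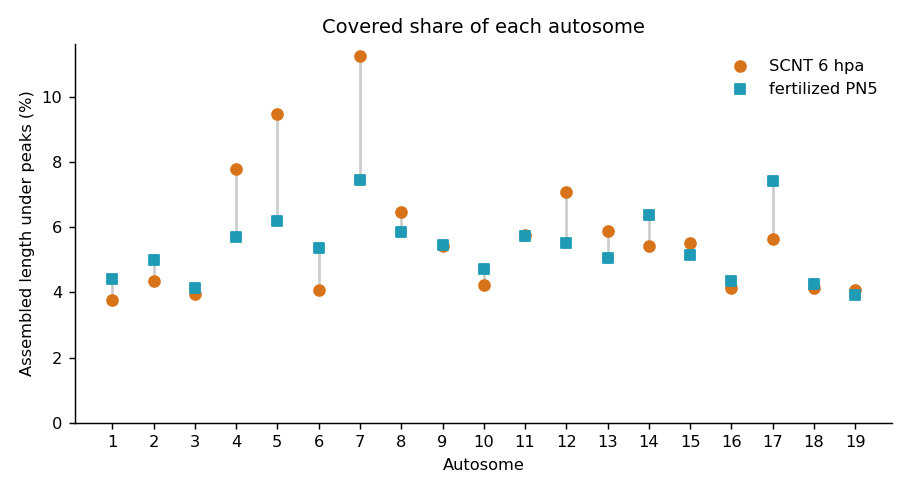
Share of the assembled length of each autosome under H3K9me3 peaks (percent) at SCNT 6 hpa (circles) and in fertilized PN5 (squares), 1 value per list and autosome, with grey lines joining the pair. The 6 hpa points stand highest on chromosomes 7 (11.2%) and 5 (9.47%), and the PN5 points vary less, between 3.93% on chromosome 19 and 7.44% on chromosome 7.

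In bins of 1 Mb the 6 hpa list was also the more clustered. Among 2397 bins the covered share had an SD of 7.42 percentage points at 6 hpa and 3.90 in PN5, and 105 bins against 23 were covered to more than 20%. The bin with the largest excess at 6 hpa, chr4:153000001-154000000 around Ajap1, which encodes an adherens junction-associated protein, was covered to 86.6% at 6 hpa, 13.3% in PN5 and 90.9% in cumulus cells (CC). A bin on chromosome 5 with Srrm4, a splicing regulator of neurons, was covered to 70.0% and 9.76%, and the bin of Tshz3, a zinc finger transcription factor, on chromosome 7 to 58.3% and 5.40%. The largest excess in PN5 was smaller. The bin chr12:103000001-104000000, which holds the Serpina1 genes, was covered to 24.9% in PN5, 3.99% at 6 hpa and 3.93% in CC. As a description over the 2397 bins, which share base composition and mappability, Spearman's rho between 6 hpa and PN5 was 0.492, between 6 hpa and CC 0.780 and between PN5 and CC 0.206. With GC content rho was 0.282 for 6 hpa, 0.623 for PN5 and -0.187 for CC.

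At the scale of 1-kb windows, a window counts as marked when peaks cover at least 50% of it. Of 2395928 autosomal windows 84669 were marked at 6 hpa only (3.53% of all windows), 81541 in PN5 only (3.4%) and 33956 in both lists (1.42%). Thus 28.6% of the 118625 6 hpa windows were marked in PN5 (95% Wilson interval 28.4 to 28.9%), and 29.4% of the 115497 PN5 windows were marked at 6 hpa (29.1 to 29.7%). Such intervals take in counting error alone, and windows next to each other depend on one another. Windows called unmarked may hold part of a peak. Of the 6 hpa only windows 19.3% held some PN5 peak base, and of the PN5 only windows 25.8% held some 6 hpa peak base. Fold enrichment was slightly higher where the lists met, with a median of 3.08 in shared windows and 2.85 in 6 hpa only windows at 6 hpa, and of 3.04 and 2.92 in PN5. Within shared windows the 2 folds were only loosely related (Spearman's rho 0.203, a description over windows that share sequence).

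The window classes differed in sequence and in position. Shared windows were rich in repeats, with 61.2% of their bases soft-masked on average, against 42.0% in 6 hpa only, 34.2% in PN5 only and 32.7% in unmarked windows. They also held more CpGs, 18.8 per window on average, against 14.5, 10.4 and 8.04. PN5 only windows lay in protein-coding genes about as often as unmarked ones, with 42.6% and 42.0% of their bases genic, while the share was 30.2% in 6 hpa only and 25.5% in shared windows. Counted in bases, introns made up 25.01% of the 6 hpa length and 33.0% of the PN5 length, and 37.5% of the assembled autosomes. Within 1 kb of a coding gene start lay 3.64% of the 6 hpa only windows, 1.49% of the PN5 only windows and 1.57% of the unmarked windows.

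Both lists were poor in AT-rich sequence. Windows under 40% GC made up 38.2% of all windows and 30.2% of the CC windows, yet 4.96% of the 6 hpa windows and 8.999% of the PN5 windows. In this range 0.643% of windows were marked at 6 hpa and 1.14% in PN5. Below 35% GC PN5 marked 0.214% (0.197 to 0.233%) and 6 hpa 0.100% (0.0887 to 0.113%), so the 6 hpa list reached AT-rich sequence less often than the PN5 list. From 45% to 60% GC the lists lay close together, at 10.3% against 8.95%, 12.9% against 12.04% and 16.0% against 14.6% in successive bins. They parted in the most GC-rich windows, at 60% GC and over, where 37.4% (36.5 to 38.3%) were marked at 6 hpa and 15.4% (14.7 to 16.0%) in PN5, a ratio of 2.43. In that bin 65.5% of the PN5 windows were marked at 6 hpa and 26.9% of the 6 hpa windows in PN5. CC marked 10.5% of those windows. The depletion in AT-rich windows was common to the 6 hpa and PN5 lists and was far weaker in the 14 hpa list, which marked 5.52% of windows from 35% to 40% GC against 0.853% at 6 hpa and 1.49% in PN5. Whether it lay in the embryos or in the preparation of the libraries was not tested.

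**Figure D2:**
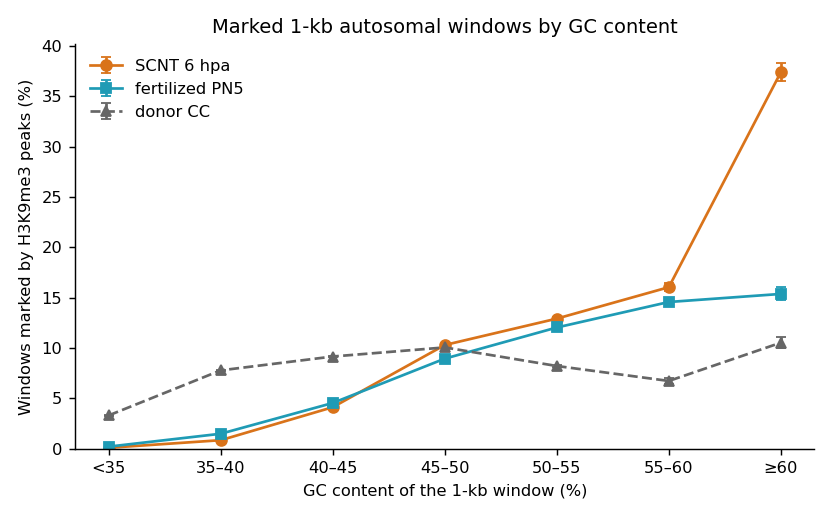
Percent of 1-kb autosomal windows marked by H3K9me3 peaks, by GC content of the window, for SCNT 6 hpa (circles), fertilized PN5 (squares) and donor CC (triangles, dashed), with 95% Wilson intervals that cover counting error. The 6 hpa and PN5 lines stay near 0 below 40% GC and near each other up to 60%, then 6 hpa rises to 37.4% and PN5 stays at 15.4%.

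Within GC-rich windows the lists were also compared by CpG density. Among windows of at least 50% GC, those with an observed-to-expected CpG ratio under 0.2 were marked in 10.3% of cases at 6 hpa and 11.5% in PN5, and those from 0.2 to 0.4 in 10.9% and 11.4%. From 0.4 to 0.6, 39.9% were marked at 6 hpa and 24.5% in PN5, and 77.8% of these PN5 windows were marked at 6 hpa. From 0.6 upwards, the range of unmethylated CpG islands, 28.4% were marked at 6 hpa (27.6 to 29.1%) and 10.3% in PN5 (9.79 to 10.8%), beside 9.04% in CC and 10.3% at 14 hpa. The excess at 6 hpa over PN5 was thus found in CpG-rich windows, and the CpG-poor windows were marked slightly more often in PN5. Median GC was 51.9% under a ratio of 0.2, 52.2% from 0.2 to 0.4, 53.6% from 0.4 to 0.6 and 60.2% from 0.6 upwards. CpG ratio and GC content rose together here and were not separated.

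The hexamer TGCCGC, which in methylated form is bound by the imprint-protecting zinc finger protein ZFP57, was searched on both strands (TGCCGC or GCGGCA). It was present in 5.89% of all windows, in 12.1% of 6 hpa only, 9.84% of PN5 only and 22.0% of shared windows. Within 45% to 50% GC the shares were 10.9%, 11.3% and 27.3% (26.6 to 28.1%), beside 9.54% of all windows in that range, so shared windows held it more often than either single-list class there. At 60% GC and over the order was turned, with 25.6% of shared windows, 55.1% of 6 hpa only windows and 52.0% of PN5 only windows. Of all windows in that range 52.4% held it, so both single-list classes lay near that share and the shared class below it. A match describes the letters of the window and no binding.

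For 20807 autosomal protein-coding genes the promoter was taken as 1 kb to either side of the annotated start. It counted as marked, by the rule of the study, if a peak filled 50% or more of it or had 50% or more of its own length inside. Marked at 6 hpa only were 5328 promoters (25.6% of those compared), in PN5 only 1028 (4.94%) and in both lists 904 (4.34%). Thus 14.5% of the 6232 promoters marked at 6 hpa were marked in PN5 (13.7 to 15.4%), while 46.8% of the 1932 PN5 promoters were marked at 6 hpa (44.6 to 49.0%). The 6 hpa marks were often partial. Of the 5328 promoters, 1173 were covered to 50% or more and 152 over their whole length, the median cover was 25.6% and the median fold 2.72 (quartiles 2.54 and 2.99). No PN5 peak base at all lay in 5151 of them. In PN5 only promoters the median cover was 34.4% and the median fold 2.87.

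More promoters were marked at 6 hpa than in PN5 in each CpG class, with the widest gap at high-CpG promoters. High-CpG promoters, the class of most housekeeping and many developmental genes, were marked in 41.1% of 10385 cases at 6 hpa (40.2 to 42.1%) and in 7.80% in PN5 (7.30 to 8.33%). For 3831 intermediate promoters the shares were 22.6% and 9.40%, and for 6591 low-CpG promoters, typical of tissue-restricted genes, 16.6% and 11.6%. In CC high-CpG promoters were marked in 4.12% of cases and low-CpG promoters in 15.2%, the opposite order to 6 hpa. High-CpG promoters made up 71.3% of the 6 hpa only class, 33.1% of the PN5 only class and 42.6% of the unmarked promoters.

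Around high-CpG gene starts, 6 hpa cover rose to 27.4% of promoters 250 bp downstream of the start and was 3.67% at 4 to 5 kb from it. PN5 cover was lowest 850 bp upstream, at 2.36%, was 4.06% at the start, rose to 4.47% at 250 bp downstream and stood at 5.01% in the flanks, so that its local rise at the start stayed below the flanks. At intermediate promoters 6 hpa cover also peaked 250 bp downstream, at 14.0%, and at low-CpG promoters it reached 9.46% at 150 bp, against 7.56% in the flanks. CC cover at high-CpG starts was 1.19%.

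**Figure D3:**
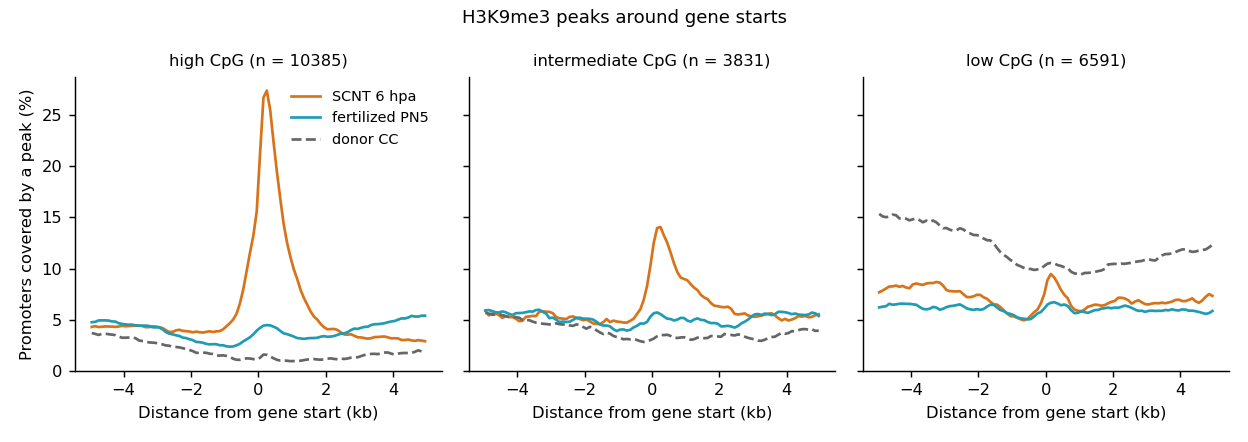
Percent of promoters covered by an H3K9me3 peak in 100-bp bins from 5 kb before to 5 kb after the gene start, in the direction of transcription, by CpG class, for SCNT 6 hpa (orange), fertilized PN5 (blue) and donor CC (grey, dashed). The 6 hpa line peaks just after the start of high-CpG genes (27.4%) and less so of intermediate ones (14.0%), while the PN5 line has a small local rise at high-CpG starts that stays under its flanks (4.47% against 5.01% at 4 to 5 kb).

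Most 6 hpa only promoters had no mark in the donor list. In 4509 of 5328 (84.6%) CC peaks covered no base, and 693 (13.0%) were marked in CC. This share was above the 7.95% of all promoters and the 4.68% of promoters in neither list that were marked in CC. In PN5 only promoters 948 of 1028 (92.2%) had no CC peak base, and of the promoters marked in both lists 604 of 904 (66.8%). Marks in both lists were found again more often later. At 14 hpa 47.8% of the shared, 14.6% of the 6 hpa only and 16.0% of the PN5 only promoters were marked, and at the 2-cell stage 36.5%, 9.97% and 11.3%, beside 3.14% and 2.61% of unmarked promoters.

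Among promoters covered to at least 50% and free of PN5 peak bases, the highest fold stood over Gm5592 (5.06). Next came Rbmxl2, a testis RNA-binding protein gene (5.01), the olfactory receptor gene Olfr212 (4.73) and Hs3st2, a heparan sulfate sulfotransferase gene (4.51). Zfp978, a zinc finger gene, had 4.50, Tcfl5, a transcription factor gene of spermatocytes, 4.37, and Boll, a DAZ-family gene of germ cells, 4.36. Dchs1, a cadherin of planar cell polarity, had 4.25 and the clustered protocadherins Pcdhga8 and Pcdhgb4 4.24 each. CC peaks covered the promoters of Gm5592, Rbmxl2, Zfp978, Pcdhga8 and Pcdhgb4 whole, that of Tcfl5 to 83.0%, and those of Hs3st2 and Dchs1 not at all.

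The strongest PN5 only promoters belonged to genes of varied function. Alad, an enzyme of haem synthesis, had the highest fold (4.08) with 60.6% of its promoter covered. Palmd, the palmdelphin gene, and its neighbour 4930455H04Rik shared a fold of 3.86, and Ccdc61, a centriole protein gene, had 3.85. Bccip, whose product binds BRCA2, had 3.67, the amine oxidase gene Aoc2 3.64, the taurine transporter gene Slc6a6 3.62 and Ssr1, of the translocon, 3.58. Olfr530 and Chadl followed with 3.55 and 3.53. None of these 10 promoters had a CC peak base. At 14 hpa peaks covered 75% of the Aoc2 promoter and 59.95% of that of Olfr530, and none of Alad, Ccdc61, Bccip or Chadl.

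In both lists the strongest shared promoters were led by Plekhm2, a lysosomal adaptor gene, with folds of 3.59 at 6 hpa and 3.52 in PN5, and by Grik3, a kainate receptor gene, with 3.49 and 3.66. Mroh5, Gm10128, Gm7735, Vstm2b, the kallikrein gene Klk12, Plbd1, Gm49394 and the cytochrome P450 gene Cyp2c67 completed the 10. Peaks covered the Mroh5, Vstm2b and Gm49394 promoters whole at 14 hpa and at the 2-cell stage. In CC the Grik3, Mroh5 and Plbd1 promoters held no peak base, and those of Gm49394 and Cyp2c67 were covered whole.

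Promoters of developmental regulators stood out at 6 hpa, in a gene list added after earlier results of these data had been seen. Of 181 genes for developmental transcription factors 132 promoters (72.9%) were marked at 6 hpa only, 19 in both lists and 0 in PN5 only, against 25.6%, 4.34% and 4.94% of all promoters. A count of 0 of 181 describes this list of peaks. The excess was also seen among high-CpG members alone, with 109 of 135 (80.7%) marked at 6 hpa only, against 36.6% of all high-CpG promoters. Of the 132, 128 had no PN5 peak base and 102 no CC peak base, 23 were covered whole, and the median cover was 64.3%, with folds from 2.41 to 4.26. Among all 5328 promoters marked at 6 hpa only, 96.7% had no PN5 base, near the part in this list. A larger part of the 5328 than of this list, 84.6%, had no CC base. Their median cover was 25.6%, and 152 were covered whole. Whole promoters were covered at 6 hpa, with no PN5 base, for En1, a homeobox gene of the midbrain and hindbrain (fold 3.49), Foxd3, a neural crest factor (3.83), Gbx2, a hindbrain boundary homeobox gene (3.38), Nkx2-1, of thyroid and lung (3.07), Pax9, of pharyngeal pouches and teeth (2.92), and Tbx15, a T-box factor (3.33). Among the 19 shared ones, Foxf1, a factor of visceral mesoderm, was covered whole in both lists with folds of 3.34 and 2.87. Myod1, the muscle determination gene, was also covered whole in both, with folds of 2.81 and 3.07. Pitx1, a hindlimb factor, was covered to 96.3% at 6 hpa and whole in PN5. Gata4, Gata6, Myf5, Myog and Runx1 had no peak base in either list and were among the 30 promoters marked in neither. Cdx2 was also among these, with 49.0% covered at 6 hpa, just under the limit, and none in PN5. Over gene bodies mean cover was 37.0% at 6 hpa, 6.46% in PN5 and 3.20% in CC for this list, and 6.79%, 6.33% and 5.88% for all coding genes. The 6 hpa marks of these promoters were mostly not found later. Of the 132, 30 were marked at 14 hpa, 28 in 2-cell, 23 in 4-cell and 10 in 8-cell embryos. In morulae 1 was marked, in the inner cell mass (ICM) 4 and in the trophectoderm (TE) 2. Of all 5328 promoters marked at 6 hpa only, 779 (14.6%) were marked at 14 hpa, 531 (9.97%) in 2-cell and 470 (8.82%) in 4-cell embryos. These were smaller parts than in the developmental list. In 8-cell embryos 435 (8.16%) were marked, near the part of that list. In morulae, ICM and TE 322 (6.04%), 282 (5.29%) and 271 (5.09%) were marked, larger parts than in that list.

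The Hox genes, which pattern the body axis, were also mostly marked at 6 hpa only, in all 4 clusters. Of 39 promoters 30 (76.9%) were marked at 6 hpa only, 2 in both lists (Hoxd1 and Hoxd9) and 1 in PN5 only (Hoxa9). Hoxa9 was covered to 42.0% at 6 hpa, which the rule did not count, and to 30.6% in PN5. Hoxa5, Hoxb7, Hoxb9 and Hoxd13 were covered whole at 6 hpa with no PN5 base, with folds of 3.15, 2.78, 2.97 and 2.84. From the first to the last base of the cluster, the Hoxa cluster (chr6:52155590-52260880) was covered to 44.6% at 6 hpa, 4.24% in PN5 and 6.94% in CC. The Hoxb cluster (chr11:96194316-96368256) was covered to 24.2%, 1.81% and 5.94%, the Hoxc cluster (chr15:102921103-103036852) to 21.3%, 1.35% and 0.439%, and the Hoxd cluster (chr2:74668310-74765142) to 26.0%, 9.13% and 5.05%. Cover of the Hoxa cluster was 12.7% at 14 hpa, 21.4% at the 2-cell and 54.1% at the 4-cell stage, and 0.482% in ICM. Unlike the developmental list as a whole, most of the 30 Hox promoters were marked again at the 4-cell stage. Of the 30, 9 were marked at 14 hpa, 16 in 2-cell, 23 in 4-cell and 16 in 8-cell embryos. In morulae 3 were marked, and 0 in ICM and in TE.

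Signalling genes and genes of the early lineages followed. Over all promoters 25.6% were marked at 6 hpa only, 4.34% in both lists and 4.94% in PN5 only. Wnt ligand promoters were marked at 6 hpa only in 14 of 19 cases (73.7%) and in both lists in 1 (Wnt7b, 5.26%). Wnt5a, a ligand of planar polarity signalling, was covered whole at 6 hpa with a fold of 3.16 and had no PN5 base. Of 31 Bmp and Fgf promoters 14 (45.2%) were marked at 6 hpa only, 2 (6.45%) in both and 2 (6.45%) in PN5 only (Bmp8a and Fgf1). The latter 2 shares were near those of all promoters. Among 52 genes of pluripotency and TE, 28 (53.8%) were marked at 6 hpa only, 1 (1.92%) in both (Ascl2) and 2 (3.85%) in PN5 only (Prdm1 and Fgfr1). Sox2, a core pluripotency factor, was covered to 97.3% at 6 hpa with a fold of 3.29, Prdm14, a regulator of naive pluripotency and germ cells, over its whole length (2.69), Lin28a, an RNA-binding protein, to 87.3% (2.85) and Klf4 to 68.3% (2.71). None of these 4 promoters had a PN5 or CC peak base. Marked in neither list were 21 of the 52, among them Pou5f1 and Nanog, which with Sox2 form the core pluripotency network, and Esrrb, Tfcp2l1, Dppa2, Dppa4 and Tdgf1, none of which had a promoter peak base in either list. Gata3 and Hand1, factors of trophoblast, were covered whole, with 36.0% and 6.20% of the promoter covered in CC. At 14 hpa peaks covered 44.4% of the Sox2 promoter and none of the promoters of Prdm14, Lin28a, Klf4, Gata3 or Hand1.

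**Figure D4:**
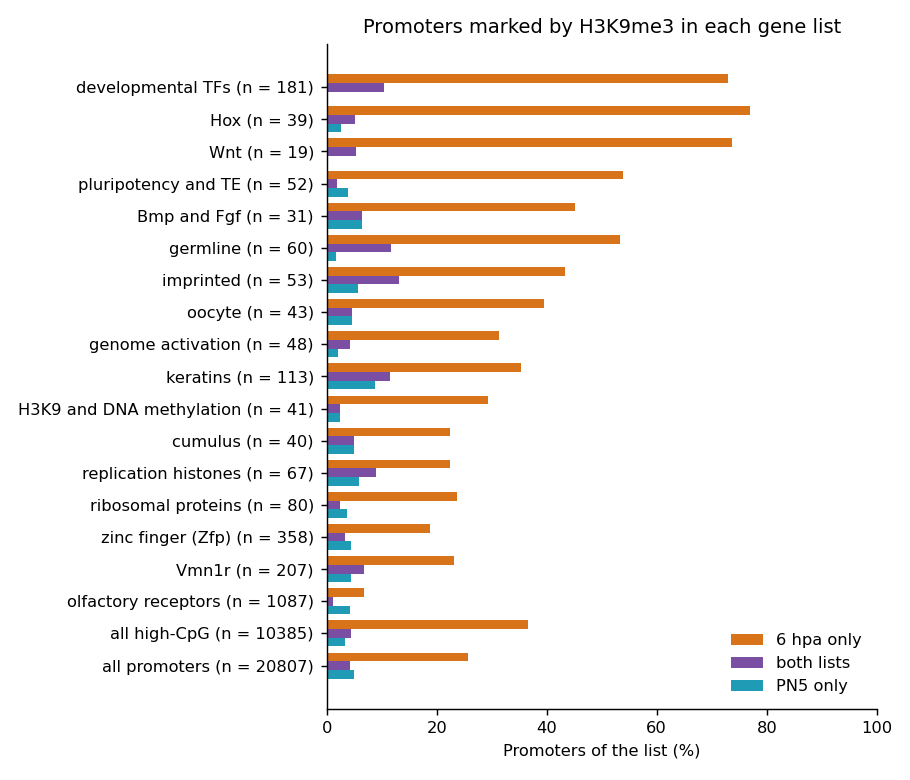
Percent of the promoters of each gene list marked at 6 hpa only (orange), in both lists (purple) and in PN5 only (blue), with the number of promoters in brackets and all high-CpG and all promoters at the bottom. Hox (76.9%), Wnt (73.7%) and developmental transcription factor (72.9%) promoters reach furthest at 6 hpa among the lists drawn, and keratins (8.85%) in PN5 only.

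Germline genes, many of them silenced by DNA methylation in somatic cells, were marked at 6 hpa only in 32 of 60 cases (53.3%). In both lists 7 (11.7%) were marked, and in PN5 only 1 (1.67%), Piwil4, a piRNA pathway gene. Over all promoters the 3 shares were 25.6%, 4.34% and 4.94%. Dazl, an RNA-binding protein of germ cells, was covered to 58.8% at 6 hpa (fold 4.18) and 72.8% in CC, and Sycp2, of the synaptonemal complex, to 75% and 37.8%. Ddx4, the vasa homologue, was covered to 33.0% at 6 hpa, 34.0% in PN5 and 39.6% in CC. Of the 32 promoters 15 were marked in CC, a larger part than the 693 of 5328 over all genes.

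Imprinted genes are expressed from 1 parental allele, and a cumulus cell and a zygote hold both parental genomes. Of 53 promoters 23 (43.4%) were marked at 6 hpa only, 7 (13.2%) in both lists and 3 (5.66%) in PN5 only. Over all promoters the shares were 25.6%, 4.34% and 4.94%, so the PN5 only share was near that of all promoters. Among the 31 high-CpG members 18 (58.1%) were marked at 6 hpa only, against 36.6% of all high-CpG promoters. The 7 shared ones were Ascl2, Mkrn3, Nap1l5, Nnat, Peg3, Usp29 and Zrsr1. Peg3, a zinc finger gene with a maternally methylated promoter, was covered to 84.2% at 6 hpa, 66.3% in PN5 and 90.2% in CC, and Mkrn3 to 86.95% and 87.95% and, in CC, whole. At 6 hpa only, Cdkn1c, a cell cycle inhibitor, was covered whole (CC 76.0%), Peg10, a retrotransposon-derived gene, to 85.5% (CC 73.6%) and Phlda2, a regulator of placental growth, to 99.6% (CC 8.80%), with no PN5 base in any of them. In PN5 only stood Igf2, the growth factor gene, with 92.4% of the promoter covered against 14.4% at 6 hpa, Mcts2 with 84.1% against none, and Zim1 with 12.6% against none. Over the Igf2 body the order was turned, with 28.25% covered in PN5 and 46.25% at 6 hpa. The fold of the peak over its promoter was 3.39 in PN5 and 3.89 at 6 hpa. Among 6 genes of noncanonical imprinting, which rests on maternal H3K27me3, 6 were marked at 6 hpa only and 0 in PN5. Of all promoters 25.6% were marked at 6 hpa only and 9.29% in PN5. With 6 genes, a count of 0 in PN5 does not set them apart from the latter share. Of the 6 genes Slc38a4 held 39.9% PN5 cover that the rule did not count, and Gab1, Jade1, Smoc1, Sfmbt2 and Zfp64 held no PN5 base.

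Genes expressed when the zygotic genome is first activated were more often covered in CC and at 6 hpa than in PN5. Of 48 promoters 15 (31.2%, against 25.6% of all promoters) were marked at 6 hpa only, 2 (4.17%) in both lists and 1 (2.08%) in PN5 only (Spz1). Outside the high-CpG class 14 of 47 (29.8%) were marked at 6 hpa only, against 14.65% of all such promoters. In CC 12 of the 15 were marked, against 13.0% of all promoters marked at 6 hpa only. Mean gene body cover was 43.5% in CC, 28.8% at 6 hpa and 4.25% in PN5, against 5.88%, 6.79% and 6.33% over all coding genes. The 7 homeobox genes of the Obox family were marked at 6 hpa only in all 7 cases and in CC in 7. Obox6 was covered to 95.8% at its promoter and 93.9% over its body at 6 hpa, with no PN5 base, and Obox2 to its whole promoter and 50.02% of its body, with 10.9% of the body covered in PN5. Among the deubiquitinase genes Usp17la to Usp17le, 6 hpa body cover ran from 30.7% (Usp17lc) to 93.0% (Usp17lb), and PN5 cover was 24.6% for Usp17la, 3.91% for Usp17le and 0.00% for the others. Tdpoz3, Tdpoz4 and Tdpoz5 were covered to 58.9%, 68.8% and 68.3% at 6 hpa and not in PN5, and Tdpoz1 and Tdpoz2 had no peak base in either list. No Zscan4 promoter was marked in either list. Over Zscan4 bodies 6 hpa cover ran from 0.00% (Zscan4b) and 19.4% (Zscan4-ps1) to 53.7% (Zscan4f), with no PN5 base, and CC cover from 70.5% (Zscan4d) upwards. Duxf3, the Dux gene that drives the 2-cell programme, was in both lists, with its promoter covered whole in each and its body whole at 6 hpa and to 63.8% in PN5. These families consist of close copies, so reads may be shared between members and the values of single genes are uncertain.

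Oocyte genes included the Nlrp family, whose products act in the subcortical complex of the oocyte. Of 43 oocyte promoters 17 (39.5%, against 25.6% of all promoters) were marked at 6 hpa only, 2 in both (Nlrp4e and Nlrp9b) and 2 in PN5 only (Tle6 and Zp1), the latter shares of 4.65% each being near the 4.34% and 4.94% of all promoters. The body of Nlrp5, or Mater, was covered to 55.3% at 6 hpa, 2.10% in PN5 and 96.2% in CC. Oas1d, an oligoadenylate synthetase gene of the oocyte, was covered to 96.8%, 13.3% and 55.8%. The body of Zfp36l2, a decay factor of maternal mRNA, was covered to 52.6% in PN5 and 8.79% at 6 hpa, and that of Tle6 to 47.1% and 5.31%. Cumulus cell genes were near the shares of all promoters, with 9 of 40 (22.5%) marked at 6 hpa only. In both lists 2 (5.00%) were marked (Greb1 and Lhcgr), in PN5 only 2 (5.00%, Ereg and Nr5a2) and in CC 0. Of all promoters 7.95% were marked in CC. Lhcgr, the luteinizing hormone receptor, was covered whole in PN5 (fold 3.95) and to 40.7% at 6 hpa (4.04).

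Genes of the H3K9 and DNA methylation machinery were near the background, with 12 of 41 (29.3%) marked at 6 hpa only. In both lists 1 (Dnmt3b, 2.44%) was marked and in PN5 only 1 (Daxx, 2.44%). Over all promoters the shares were 25.6%, 4.34% and 4.94%. The body of Daxx, a histone H3.3 chaperone, was covered to 61.1% in PN5 and 0.00% at 6 hpa. Suv39h2, an H3K9 methyltransferase gene, had 27.05% of its promoter covered at 6 hpa. Ribosomal protein genes (19 of 80 at 6 hpa only, 23.8%) and replication histone genes (15 of 67, 22.4%), both CpG-rich and highly expressed, were below the 36.6% of all high-CpG promoters. Of 358 Zfp genes 67 (18.7%) were marked at 6 hpa only and 16 (4.47%) in PN5 only, against 25.6% and 4.94% of all promoters. Keratin genes, with few high-CpG promoters, were marked at 6 hpa only in 40 of 113 cases (35.4%), in both in 13 (11.5%) and in PN5 only in 10 (8.85%). Each of these shares was above that of all promoters (25.6%, 4.34% and 4.94%).

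Chemosensory receptor genes form large clusters and are silent outside sensory neurons. Of 1087 olfactory receptor promoters 73 (6.72%) were marked at 6 hpa only, 47 (4.32%) in PN5 only and 13 in both. Over all promoters the shares were 25.6%, 4.94% and 4.34%. In CC 146 (13.4%) were marked, against 7.95% of all promoters and 15.2% of low-CpG ones. For Vmn1r genes, which encode pheromone receptors, the counts were 48 (23.2%), 9 (4.35%) and 14 (6.76%) of 207, beside 121 (58.45%) in CC. Their 6 hpa share in all, 29.9%, was that of all promoters (29.9%), and mean body cover was 14.8% at 6 hpa, 6.87% in PN5 and 49.2% in CC, against 6.79%, 6.33% and 5.88% over all coding genes. For Vmn2r genes the counts were 10 (8.40%), 3 (2.52%) and 4 (3.36%) of 119, beside 57 (47.9%) in CC. The clustered protocadherins, adhesion proteins of neurons, had 22 of 57 promoters (38.6%) at 6 hpa only, 1 in PN5 only and 1 in both. In CC 36 (63.2%) were marked. Of 64 defensin promoters, none of high CpG, 17 (26.6%) were marked at 6 hpa only and 4 (6.25%) in PN5 only, near the shares of all promoters. Of all promoters outside the high-CpG class, however, 14.65% were marked at 6 hpa only. Defensins and the Vmn1r promoters outside that class (23.3% of 206) lay above this. Of 11 Pramel genes 4 (36.4%) were marked at 6 hpa only and 1 (9.09%) in PN5 only.

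Over whole gene bodies 456 genes (2.19% of 20807) were covered to at least 50% at 6 hpa and under 10% in PN5, 175 (0.841%) the other way round, and 101 to at least 50% in both. Of the 456 genes of the 6 hpa class, 86 lay on chromosome 7, which holds 2023 of the 20807 coding genes, 55 on chromosome 5, which holds 1260, and 43 on chromosome 4, which holds 1327, and 7 of the 10 genes with the largest excess lay on chromosome 5. Tmem132d, a transmembrane protein gene of neurons (chr5:127781630-128433077), was covered over 456 kb at 6 hpa, 70.0% of its length, 38.1 kb in PN5 (5.84%) and 96.7% in CC. Spock1, a testican proteoglycan gene on chromosome 13, had 246 kb against 34.4 kb. Srrm4 was covered to 68.2% against 3.56%, Tshz3 to 68.4% against 6.53%, and Rph3a, an effector of synaptic vesicle release, to 68.7% against 2.52%. The receptor gene Adgrd1 had 56.95% against 8.20%. Gm5592, Wscd2, Glt1d1 and Wasf3, a regulator of actin, complete the 10 with the largest excess. All 10 were also covered in CC, from 26.9% (Adgrd1) to 96.7% (Tmem132d), and at 14 hpa, from 45.1% (Rph3a) to 79.9% (Tmem132d).

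Few genes of either class were large, 3 of 175 over 20 kb in PN5 and 22 of 456 at 6 hpa, and median length was 3.93 kb and 2.40 kb. Chromosome 12, with 643 of the 20807 coding genes, held 21 of the PN5 class. Its leading group was the Serpina1 cluster, paralogues that encode alpha-1 antitrypsins of the liver (chr12:103728156-103958975). The cluster was covered to 54.0% in PN5, 6.74% at 6 hpa, 7.19% in CC and 12.02% at 14 hpa, and all 5 members passed 50% in PN5. Serpina1c was covered to 86.5%, Serpina1a to 82.4%, Serpina1d to 77.0%, Serpina1e to 72.3% and Serpina1b to 59.9% in PN5, and at 6 hpa the 5 lay between 0.00% and 7.10%. The members are near-identical, so reads may be shared among them. Serpina12, the vaspin gene nearby, was covered to 70.0% and 5.19%. Outside the serpins stood Jag2, a Notch ligand, with 50.4% against 9.24%, Abca2, a lipid transporter gene, with 50.6% against 5.59%, Tex33 with 65.7% against 7.30% and Gm2237 with 59.7% against 6.79%. Of the 175 genes 7 were covered to at least 50% in CC and 12 at 14 hpa, of the 456 genes of the 6 hpa class 160 and 150, and of all 20807 coding genes 856 and 604.

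Among the 101 genes covered in both lists, Sfi1, a centrin-binding protein gene on chromosome 11, was covered to 97.8% at 6 hpa and 51.1% in PN5, and Mroh2a to 96.1% and 64.1%. Tcp10c, of the t-complex, had 83.4% and 94.2%. The filaggrin genes Flg2 and Flg, of the epidermis, had 70.4% and 75.5%, and 68.7% and 50.9%. Ces2h, a carboxylesterase gene, had 57.4% and 52.0%. Gm10251, Gm3164, Gm3618 and Gm3264 are members of a repeated gene group at the start of chromosome 14, where the 4 megabase bins with the highest PN5 cover (36.3% to 42.6%) stood. Chromosome 7 held 25 and chromosome 14, with 902 coding genes, held 17 of the 101 genes. In 62 of the 101, CC peaks also covered at least 50%.

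The longest unbroken stretches show the 2 kinds of territory. The longest covered at 6 hpa without any PN5 base, chr4:153783896-153821368, measured 37473 bp, lay outside genes 135868 bp from A430005L14Rik, and was covered whole in CC and to 91.9% at 14 hpa. The next 4 measured 22759 to 25181 bp and lay near Ajap1 on chromosome 4 and near Adgrd1 and Srrm4 on chromosome 5, outside coding genes and covered to at least 88.4% in CC. In PN5 the longest, chr12:103727672-103737237, measured 9566 bp and overlapped exons and introns of Serpina1b. It was followed by stretches of 7877 to 8924 bp in Galnt14, near Serpinb6b, in an intron of Rbfox3 and in Dym, with CC cover between 0.00% and 2.40%. The longest shared stretch, chr9:3053404-3077227, measured 23824 bp near the centromere-proximal end of chromosome 9 and was covered whole in CC and in 14 hpa and 2-cell embryos. The others lay in the t-complex region of chromosome 17 around Smok2a, Smok2b and Tcp10c and in an exon of Flg2. From these longest stretches 120 bases are shown, on the plus strand, with CpGs in capitals and named by the nearest coding gene. The shared span held no CpG and each of the others 2.
For 6 hpa only, A430005L14Rik, chr4:153802572-153802691, plus strand: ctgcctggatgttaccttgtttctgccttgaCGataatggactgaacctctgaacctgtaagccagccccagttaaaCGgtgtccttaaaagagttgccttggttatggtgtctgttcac
For PN5 only, Serpina1b, chr12:103732395-103732514, plus strand: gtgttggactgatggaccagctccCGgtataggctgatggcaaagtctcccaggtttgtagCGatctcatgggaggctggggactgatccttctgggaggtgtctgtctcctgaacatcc
For both lists, Gm10715, chr9:3065256-3065375, plus strand: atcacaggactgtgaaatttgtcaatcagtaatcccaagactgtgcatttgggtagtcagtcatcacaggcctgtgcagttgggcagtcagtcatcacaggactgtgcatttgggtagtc

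The donor and the later SCNT lists divided the window classes further. Windows in both lists were marked in 72.7% of cases in CC and 89.2% at 14 hpa, then 79.6% in 2-cell embryos and 67.05% in TE. The 6 hpa only windows were marked in 55.6% in CC, 55.4% at 14 hpa and 37.1% at the 2-cell stage. The PN5 only windows were marked in 14.4% in CC, and in 32.7% at 14 hpa and 21.3% at the 2-cell stage, against 4.14% and 1.60% of windows in neither list. PN5 only windows were thus marked more often in the SCNT list at 14 hpa than in the donor list.

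Windows marked at both CC and 6 hpa were marked in PN5 in 34.4% of cases (34.1 to 34.7%), windows marked at 6 hpa and not in CC in 19.8% (19.4 to 20.1%), those marked in CC and not at 6 hpa in 9.32% (9.17 to 9.49%) and those marked in neither in 3.24% (3.22 to 3.27%). Within 45% to 50% GC the order was kept for the ends and the middle shares lay closer, at 36.3%, 22.1%, 20.3% and 5.84%. At 60% GC and over, windows marked in CC and 6 hpa were marked in PN5 in 60.2% of 1200 cases, while windows marked at 6 hpa and not in CC were so in 14.1% of 3123 cases, not far above the 8.46% of windows marked in neither. Of the 6 hpa only windows absent from CC, 29.0% were marked at 14 hpa, and of those present in CC 76.4%.

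**Figure D5:**
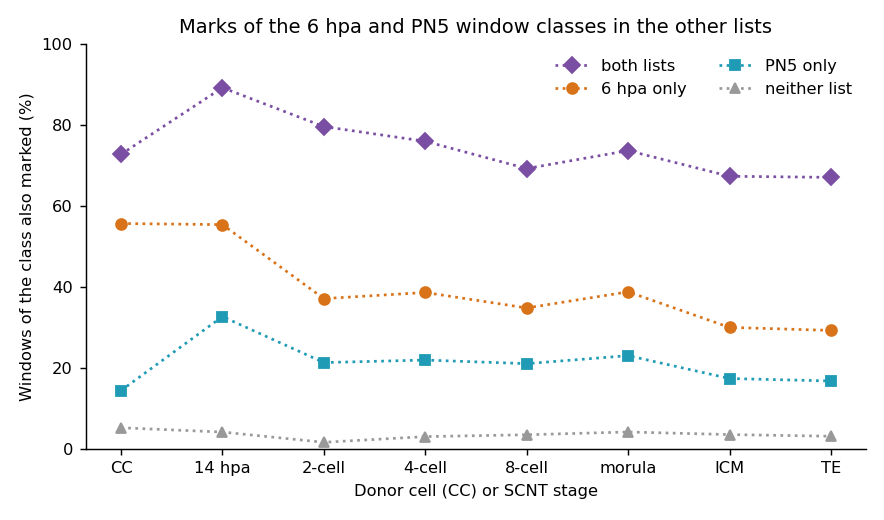
Percent of the windows of each class (both lists, 6 hpa only, PN5 only, neither) that were also marked in the list of donor CC or of a later SCNT stage, with dotted lines only guiding the eye and ICM and TE being parts of the same blastocysts. Windows in both lists stay highest throughout (67.05% to 89.2%), followed by 6 hpa only, PN5 only and neither.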

How the data were processed

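H3K9me3 was measured by ULI-NChIP-seq, a native ChIP for few cells with nuclease-cut chromatin. Reads were trimmed by the authors with cutadapt 1.16 and aligned to mm10 with BWA, alignments of a group were merged with SAMtools, and duplicates were removed and every group was reduced to an equal number of reads with Picard. Peaks were called over input with MACS2 in broad mode, with a threshold not given in the sources used here, and deposited as 1 list per group. The lowest −log10 q-value deposited was 1.31 at 6 hpa and 1.30 in PN5. The fold of each peak is the ratio deposited by the authors' peak caller. The −log10 p-values deposited by the authors were not used. Depths of single libraries are not in these files, and intervals cover counting error only.

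Covered bases, 1-kb windows with at least 50% assembled bases, promoters and gene bodies were computed with Python 3 (numpy, pandas) and checked on simulated peaks. Genes came from GENCODE M21 and sequence from GRCm38.p6, within whose autosomes each peak lay. High-CpG promoters had a 500-bp window, moved in steps of 10 bp, in which the CpG ratio reached 0.75 and GC 55%, low-CpG ones none with a ratio above 0.48. No replicates exist per list, so no test was made, and a place without a peak was not detected above the threshold rather than shown to lack the mark. Named promoters were the 10 of highest fold per class (cover of at least 50%, no peak base in the other list, or for shared ones the smaller fold), named gene bodies the 10 with the largest difference in covered bases per direction, and named stretches the 5 longest per class. Genes named from lists were examples marked in a single list or covered to at least 50%, and shared or unmarked members were named after their values were seen, as were the 10 genes covered furthest in both lists. The gene lists, alternatives and comparison were chosen with earlier results of these data known, and the developmental gene list and the alternatives added for it after seeing them. Peaks on X and Y were left out of the comparison. Alternatives were trimming to equal length, a stricter −log10 q of 2, peaks of at least 500 bp and other window, promoter and gene limits.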

Additional observations from a re-analysis of the deposited data

Results flagged for a closer look

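Peaks outside the autosomes were set aside from the comparison and are given as values. On chromosome X there were 20798 peaks at 6 hpa, covering 18070 kb, and 4596 peaks in PN5, covering 4463 kb. The donors of the 6 hpa embryos were female, and the sex of the zygotes is not given in the sources used here. On chromosome Y there were 302 peaks at 6 hpa, covering 255 kb, and 251 peaks in PN5, covering 234 kb. Nuclear donors and oocytes of the 6 hpa embryos came from females. Neither list held a peak on the mitochondrial chromosome.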

How the results depend on the processing

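No paired analysis was possible because each list joins all libraries of its group, and no replicate could be left out. Trimming to equal covered length kept every count of windows, promoters and genes within 1.5 times. Under a stricter −log10 q of 2, PN5 only windows fell to 47599, PN5 only promoters to 608 and shared promoters to 342, and the length ratio was 1.38. With peaks of at least 500 bp, 6 hpa only promoters numbered 2865, shared ones 435, and the ratio was 1.02. Marking windows at any peak base gave 194143 windows at 6 hpa only, 155627 in PN5 only and 96205 in both, and at 80% coverage 48074, 49591 and 17029, so that PN5 only windows then outnumbered 6 hpa only ones. Windows of at most 50% soft-masked bases gave 54674 at 6 hpa only and 13688 in both, against 61985 in PN5 only. Promoters of 500 bp to either side gave 569 shared. Genes at 80% against under 10% numbered 142 and 36, and over all gene biotypes 2565 and 1005. The share of 6 hpa windows marked in PN5 was 29.6% (trimmed), 25.4% (stricter q), 33.1% (any base), 26.2% (80% coverage) and 20.0% (few soft-masked bases), and 22.8% to 38.7% over single autosomes, whose length ratio ran from 0.761 to 1.53. Under each of the promoter settings more promoters were marked at 6 hpa only than in PN5 only. Of the 181 developmental transcription factor promoters 116 to 138 were marked at 6 hpa only and 0 or 1 in PN5 only. That gene list and its alternatives were added after earlier results had been seen. The cause of the shifts between settings was not tested.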

Other observations

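Chromosome ends were compared as a further description. In the 5 Mb next to the centromere-proximal end of the assembled autosomes, 7.42% of windows were marked at 6 hpa and 6.52% in PN5, beside 15.2% in CC. In the distal 5 Mb the shares were 6.91%, 5.41% and 9.23%, and elsewhere 4.76%, 4.72% and 7.91%. In the centromere-proximal part the 6 hpa share was the higher one on 14 autosomes, in the distal part on 8 and elsewhere on 7. Among autosomal peaks the highest fold was 52.3 at 6 hpa and 13.9 in PN5.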
